A study of Mus musculus with 4 samples.

Results

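The genes of the Bcl2 family were followed in sorted hair follicle stem cells of wild-type mice and of mice with a conditional knockout of Tbx1, a T-box transcription factor gene. The 10 members, fixed by name, were the pro-survival genes Bcl2, Bcl2l1 and Mcl1, the pore-forming effector genes Bax and Bak1, and the BH3-only genes Bcl2l11, Bid, Bad, Bbc3 and Bmf. Every probe set whose single platform gene symbol was one of these names was taken, which gave 24 of the 22690 probe sets on the array, for 9 of the 10 genes. Bax was not analysed here. A probe set is the group of probes on an Affymetrix array that together give 1 value.

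Proteins of this family decide whether the outer mitochondrial membrane stays intact. Pro-survival members hold the effectors in check, BH3-only proteins bind and neutralise the pro-survival members or engage the effectors directly, and free effectors form pores that release cytochrome c, which starts the caspases. Hair follicles go through repeated rounds of growth, cell death and rest, and the bulge, where the stem cells lie, outlasts each round.

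The cells came from the back skin of CD1/C57BL/6 females aged about 60 postnatal days and were sorted by YFP, integrin α6 and CD34. The 4 arrays held 2 genotypes with 2 arrays each, wild type (WT) and conditional knockout of Tbx1 (cKO), and one array of each genotype shared a set number. All 4 labels give depilation with wax 48 h before harvest, whereas a second label calls set 1 quiescent and set 2 activated, so sets are named by number. The sources used here do not say what drives the deletion, where YFP comes from or how many animals stand behind an array. The p-values therefore cover just the variation among these 4 arrays, which could be technical.

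Values are log2 intensities, so a difference of 1 is a doubling. The median of all probe sets on an array lay between 6.36 and 6.38. A probe set was tested when its mean over the 4 arrays reached 5.40, percentile 40 of all probe sets, and 12531 with a single symbol did so. Of the member probe sets, 16 of 24 reached it, for 8 genes, and the other 8 are given by level. Tbx1 itself was at 9.54 and 8.88 in cKO against 10.53 and 10.37 in WT (difference -1.24, limma adjusted p = 0.274), and whether its probes lie in the deleted part was not tested. All 10 bulge marker genes were above the limit on at least 1 array, with summed linear intensities of 57771 to 59407 in cKO and 50732 to 53260 in WT. The keratin genes Krt5, Krt14 and Krt15 were the brightest in this sum. Of the 16 tested bulge probe sets, 3 had both cKO arrays above both WT arrays, 1 had them below and 12 overlapped. Over all tested probe sets, 23.4% lay above and 21.4% below. Krt15 differed by 0.51, and Lhx2, the one lower on both cKO arrays, by -0.45. Of 10 immune markers, 8 were below the limit on every array, the lymphocyte and leukocyte genes Ptprc, Cd3e and Cd3g among them. The others were Cd74, at 6.29 and 6.00 in cKO against 6.00 and 5.14 in WT, and H2-Aa. Probe set 1435290_x_at of H2-Aa read 7.40 and 6.89 against 7.31 and 6.18. Summed endothelial markers read 174 to 186 in cKO and 2426 to 2532 in WT. In limma's adjusted test 5 of the 6 tested endothelial probe sets were lower in cKO, where 7 of all 12531 tested probe sets (0.0559%) were called. All 6 lay below the limit on both cKO arrays, so they were tested only through their higher WT arrays. Summed fibroblast markers read 386 to 469 in cKO and 805 to 809 in WT. Vim had the largest difference in this sum, with 1438118_x_at at 7.24 and 6.66 in cKO against 8.93 and 8.80 in WT. The other tested fibroblast genes, Col1a2 and Dcn, differed by -0.14 and -0.42. Of 10 endothelial markers, Pecam1, Kdr and Tie1 lay below the limit on all arrays, and of 8 fibroblast markers Col1a1, Col3a1, Pdgfra, Lum and Pdgfrb did. The cKO set 1 array had a 3′ minus 5′ difference of 2.95 for the added control Dap, against 1.74 to 1.82 on the other arrays. It was also highest for 3 of the cells' own transcripts. Beta-actin was at 1.68 against 1.09 to 1.18, Gapdh at 0.68 against 0.24 to 0.34 and the transferrin receptor at 0.94 against 0.43 to 0.76. The WT set 2 array read 12.35 for the nuclear RNA Malat1, against 9.80 to 10.56. The part of these features in the results that follow was not tested. For many tested members and leading probe sets of list genes, the difference with both the cKO set 1 and WT set 2 arrays left out is also given. That value comes from the other pair, which mixes genotype with set. It is not given for every probe set that moved. In bulk RNA, more cells expressing a gene and more RNA per cell cannot be told apart.

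Bcl2l11 and Mcl1 were the members with tested probe sets on which both cKO arrays lay above both WT arrays, on 7 of the 16 member probe sets tested and 23.4% of all. The bases just before their annotated transcription start are shown first, since both genes read higher in cKO on several probe sets, without passing the test given with their values. They are taken from RefSeq on GRCm38.p6, in which promoter windows were found for all 10 members. Each is the 250 bases before the start on the plus strand, at chr2:128125788-128126037 for the upstream start of Bcl2l11 and chr3:95658471-95658720 for Mcl1. Capitals mark 2 motifs searched on both strands, the forkhead core TGTTTAC, which reads GTAAACA on the opposite strand, and the GC box GGGCGG, which reads CCGCCC there.
Bcl2l11: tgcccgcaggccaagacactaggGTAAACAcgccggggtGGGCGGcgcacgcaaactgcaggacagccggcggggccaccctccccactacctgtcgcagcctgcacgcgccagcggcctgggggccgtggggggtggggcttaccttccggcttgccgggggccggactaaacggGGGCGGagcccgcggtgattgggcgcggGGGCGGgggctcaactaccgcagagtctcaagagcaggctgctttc
Mcl1: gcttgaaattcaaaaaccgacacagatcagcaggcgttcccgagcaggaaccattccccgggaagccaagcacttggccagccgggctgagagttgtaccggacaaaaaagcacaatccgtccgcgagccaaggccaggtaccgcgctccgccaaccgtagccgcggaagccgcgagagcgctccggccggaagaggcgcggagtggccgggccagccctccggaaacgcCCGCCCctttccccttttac

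The Bcl2l11 window shown held 1 forkhead core, from 227 to 221 bases before the start and read on the minus strand, and 3 GC boxes. The window of the other annotated Bcl2l11 start, not shown, held no forkhead core and 2 GC boxes. The Mcl1 window held 1 GC box and no forkhead core. Over all 32851 promoter windows of this length, 3.17% held the forkhead core and 32.7% the GC box. Among the 18 windows of the members, 2 held the forkhead core, the one shown and one of Bbc3, and 10 held a GC box. No forkhead core overlapped a GC box in these windows. A match of letters describes the sequence and is no evidence of binding.

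The comparison of cKO with WT sets cells labelled as Tbx1 knockout against wild-type cells. No member passed limma's test over all probe sets (lowest adjusted p = 0.34 among 16), and 0.0559% of all probe sets did. With the set number as a block the member count was again 0, against 0.455% of all probe sets. The largest differences were those of Bcl2l11, which encodes the BH3-only protein Bim, at 1.47-fold to 1.64-fold on 3 probe sets. Mcl1 followed at 1.09-fold to 1.34-fold over 6 probe sets. Bcl2, Bcl2l1, Bak1, Bid and Bbc3 had no probe set above the limit whose groups stood apart, nor did Bad.

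Counted over probe sets, both cKO arrays lay above both WT arrays for 7 of the 16 tested members, and the reverse held for 0. Over all tested probe sets these arrangements made up 23.4% and 21.4%. Because the members were chosen with earlier results of these data known, the shares given here describe them and are no test of the family. The 7 belong to only 2 of the 8 genes, 3 to Bcl2l11 and 4 to Mcl1. At an unadjusted p under 0.05 limma gave 4 member probe sets, 3 of Bcl2l11 and 1 of Mcl1, where 12% of all probe sets reached it, 6.36% with cKO higher. Values higher in cKO by at least 0.32 within both sets were found for 4 of the 16 as well, against 7.69% of all, and values lower by as much for 0, against 7.96%. A difference of that size in opposite directions in the sets was found for 0 of the 16, against 2.38%. The median difference was 0.21 over the 16 tested member probe sets and -0.0027 over all tested probe sets. Of the 16, 6 measure Mcl1 and 3 Bcl2l11, so these genes weigh most in that median. Averaged by gene, the differences were 0.64 for Bcl2l11, 0.31 for Mcl1 and from -0.13 to 0.14 for the other tested genes. The summed melanocyte markers, genes of a cell type known for its need of Bcl2, read 430 to 442 in cKO and 311 to 397 in WT, with Tyr and Kit below the limit on all arrays. The largest difference among the tested melanocyte markers was that of Mitf 1455214_at, at 7.69 and 7.28 in cKO against 6.63 and 7.13 in WT. Sox10 1424985_a_at differed by 0.34, Dct by 0.24 and Pmel by -0.09, and the groups of Dct and Pmel overlapped. Whether melanocytes bear on the members' values was not tested.

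Within the pro-survival members, Bcl2, the founding gene of the family, was carried by 1 probe set, which read 6.22 and 6.31 in cKO (set 1, then set 2, as in all such pairs here) and 5.96 and 6.34 in WT. The groups overlapped, and WT set 1 was the low array. The difference was 0.11 (SE 0.19, 95% interval from -0.38 to 0.60, limma adjusted p = 0.843), with 0.25 within set 1 and -0.03 within set 2. Without cKO set 1 and WT set 2 it was 0.35.

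Bcl2l1, whose long product Bcl-xL blocks the effectors, had 1 of 4 probe sets above the limit. It read 7.98 and 7.78 in cKO against 7.99 and 7.50 in WT. Both arrays of set 1 were at about the same level, and WT set 2 was the lowest. The difference was 0.14 (SE 0.22, 95% interval from -0.43 to 0.70, limma adjusted p = 0.832), and it was -0.21 with cKO set 1 and WT set 2 both left out. The other 3 Bcl2l1 probe sets lay below the limit on every array, and on each both cKO arrays stood above both WT arrays by means of 0.13 to 0.27.

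Mcl1 encodes a short-lived pro-survival protein on which many cell types depend, and its 6 probe sets did not all give the same result. On 4 of them both cKO arrays lay above both WT arrays. Probe set 1456243_x_at read 10.89 and 10.72 in cKO against 10.35 and 10.42 in WT, a difference of 0.42 (SE 0.16, 95% interval from 0.01 to 0.83, unadjusted p = 0.046 and adjusted p = 0.41 by limma). Probe set 1437527_x_at read 11.21 and 11.04 against 10.74 and 10.77, a difference of 0.37. The groups stood apart on both, with the cKO set 1 array highest. With cKO set 1 and WT set 2 both left out, the difference was 0.37 on the first and 0.29 on the second.

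On 1456381_x_at the cKO arrays read 10.62 and 10.52 and the WT arrays 10.23 and 10.18, a difference of 0.37. On 1416880_at they read 10.54 and 10.51 against 10.11 and 10.28, a difference of 0.33. The remaining Mcl1 probe sets gave another picture. Probe set 1448503_at read 12.07 and 12.29 in cKO against 12.18 and 11.92 in WT, and 1416881_at was at 9.561 and 9.996 against 9.609 and 9.456. The groups overlapped on both, with WT above cKO in set 1 by 0.11 and 0.05 and cKO above WT in set 2 by 0.37 and 0.54. Without cKO set 1 and WT set 2, the difference on 1416881_at moved from 0.25 to 0.39. The suffix x in a probe set name marks probes that can also match other transcripts, and it belongs to 3 of the 4 Mcl1 probe sets whose groups stood apart. The mean over the 6 Mcl1 probe sets, taken after the data were seen, differed by 0.31 (SE 0.15, limma adjusted p = 0.421).

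**Figure D1:**
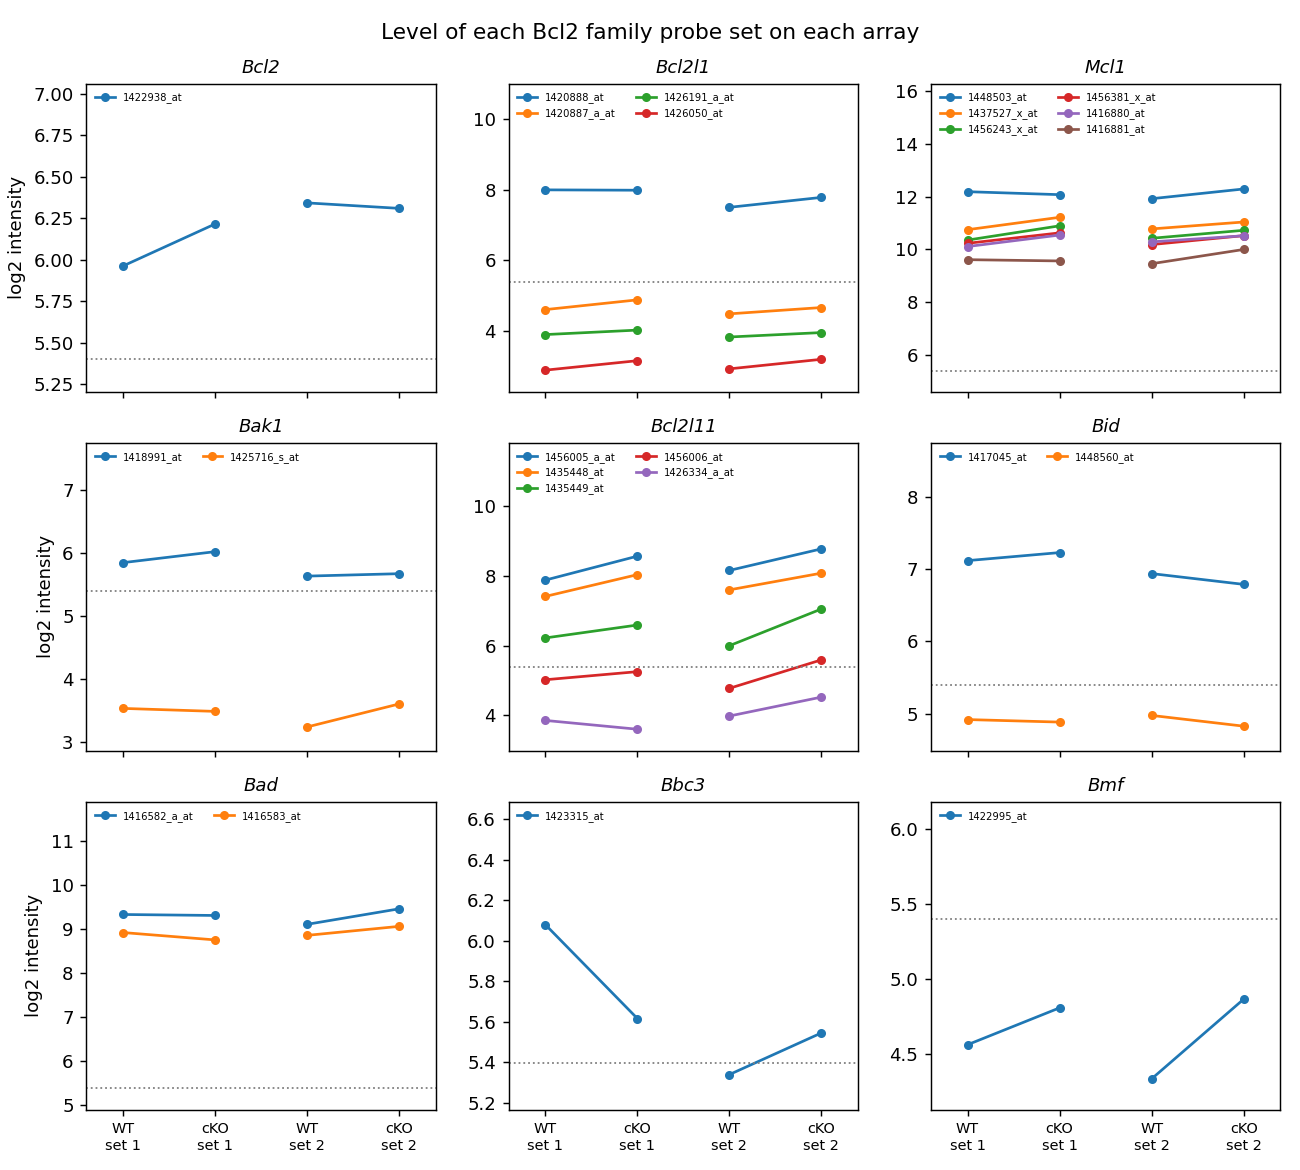
Log2 intensity of all 24 member probe sets, 1 panel per gene with its own vertical axis, on the 4 arrays; points are single arrays, lines join the WT and cKO arrays of a set, and the dotted line is the limit of 5.40. Bcl2l11 lies higher in cKO than in WT within both sets on 4 of its 5 probe sets, while Bbc3 is lower in cKO in set 1 and higher in set 2.

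Of the effectors, Bak1, which forms mitochondrial pores, was carried by 1 probe set above the limit. It read 6.02 and 5.67 in cKO against 5.85 and 5.63 in WT, with a difference of 0.11 (SE 0.20, 95% interval from -0.39 to 0.60, limma adjusted p = 0.853), or -0.18 without cKO set 1 and WT set 2. The groups overlapped, and in both genotypes the set 1 array was the higher one. Its second probe set lay between 3.23 and 3.60, below the limit on all arrays.

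Among BH3-only members, Bcl2l11 had the largest differences. Bim, its product, binds all pro-survival proteins of the family. Probe set 1456005_a_at read 8.57 and 8.78 in cKO against 7.88 and 8.16 in WT, a difference of 0.65 (SE 0.19, 95% interval from 0.18 to 1.12, unadjusted p = 0.015 and adjusted p = 0.34 by limma). The cKO level was 1.61-fold the WT level within set 1 and 1.54-fold within set 2. Probe set 1435448_at read 8.04 and 8.08 in cKO against 7.42 and 7.60 in WT, a difference of 0.55 (SE 0.16, adjusted p = 0.345 by limma). On both, the lower cKO array was above the higher WT array, and the differences within the sets were of similar size.

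Probe set 1435449_at of Bcl2l11 read 6.60 and 7.06 in cKO against 6.22 and 6.00 in WT, a difference of 0.71 (SE 0.22, adjusted p = 0.352 by limma). Here the difference was 0.37 within set 1 and 1.05 within set 2, and the difference between the sets was not tested. Probe set 1456006_at read 5.26 and 5.60 against 5.02 and 4.78, with only the cKO set 2 array above the limit. Probe set 1426334_a_at lay between 3.60 and 4.53, below the limit on every array, and its groups overlapped.

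All of these probe sets measure 1 gene and are not replicates of the genotype. The mean of the 3 tested Bcl2l11 probe sets, an alternative added after the data were seen, differed by 0.64 (SE 0.17, unadjusted p = 0.0091, adjusted p = 0.248 over 8033 genes by limma). Without the arrays that stood apart in control and nuclear RNA, cKO set 1 and WT set 2, the remaining cKO array exceeded the remaining WT array by 0.90, 0.67 and 0.83 on 1456005_a_at, 1435448_at and 1435449_at of Bcl2l11. That pair also differs in set. The opposite pair, cKO set 1 minus WT set 2, gave smaller differences of 0.41, 0.44 and 0.59 on the same probe sets. Leaving out 1 array at a time kept the differences between 0.51 and 0.79, 0.46 and 0.65, and 0.48 and 0.94 in the same order, and limma's adjusted p over all alternatives ran from 0.158 to 0.999 for the first of them.

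Bid, which is cleaved by caspase-8 and so links death receptors to mitochondria, read 7.23 and 6.79 in cKO against 7.12 and 6.94 in WT on its tested probe set. The cKO arrays enclosed the WT arrays, and the difference was -0.02 (SE 0.21, 95% interval from -0.55 to 0.51, limma adjusted p = 0.979), or -0.33 without cKO set 1 and WT set 2. Its second probe set, 1448560_at, lay below the limit at 4.83 to 4.98. On it both cKO arrays stood below both WT arrays, by a mean of 0.09, the only member probe set in that order.

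Bad, a BH3-only protein held inactive by phosphorylation downstream of growth factor signals, had 2 tested probe sets. Probe set 1416582_a_at read 9.30 and 9.46 in cKO against 9.33 and 9.10 in WT, a difference of 0.17 (SE 0.17, limma adjusted p = 0.726). Probe set 1416583_at read 8.75 and 9.06 against 8.92 and 8.85, a difference of 0.02 (SE 0.18, limma adjusted p = 0.977), or 0.14 without cKO set 1 and WT set 2. On both, cKO was below WT in set 1 and above it in set 2.

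Bbc3 encodes Puma, a target of p53. It read 5.62 and 5.54 in cKO against 6.08 and 5.34 in WT, so that the WT arrays enclosed the cKO arrays and WT set 2 lay just below the limit. The difference was -0.13 (SE 0.27, 95% interval from -0.82 to 0.56, limma adjusted p = 0.874), with -0.46 within set 1 and 0.21 within set 2. Without cKO set 1 and WT set 2 it was -0.53. Bmf, whose product responds to loss of attachment, read 4.81 and 4.87 in cKO against 4.56 and 4.34 in WT, below the limit on every array. Its groups did not overlap, and in the fit without a filter the difference was 0.39 (limma adjusted p = 0.447).

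**Figure D2:**
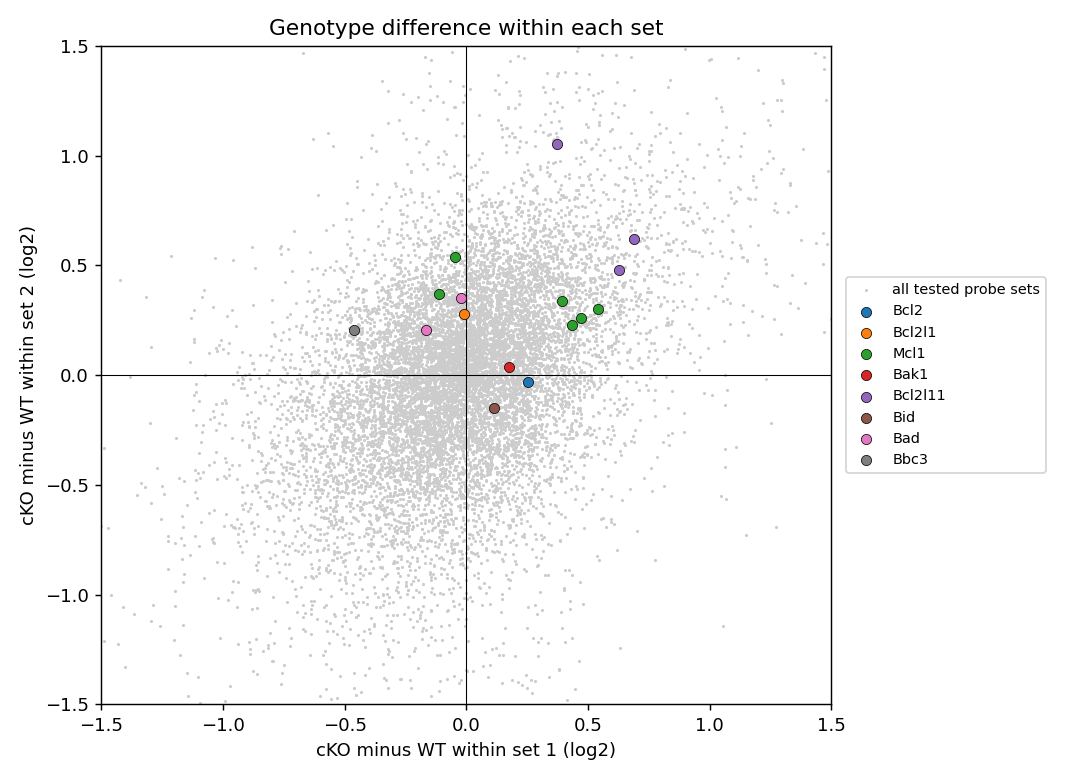
The cKO minus WT difference in log2 intensity within set 1 (horizontal axis) and within set 2 (vertical axis) for the 16 tested member probe sets, coloured by gene, over all 12531 tested probe sets in grey, of which 259 lie outside the axes. The 3 Bcl2l11 points and 4 of the 6 Mcl1 points are positive on both axes, and no member is negative on both.

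**Figure D3:**
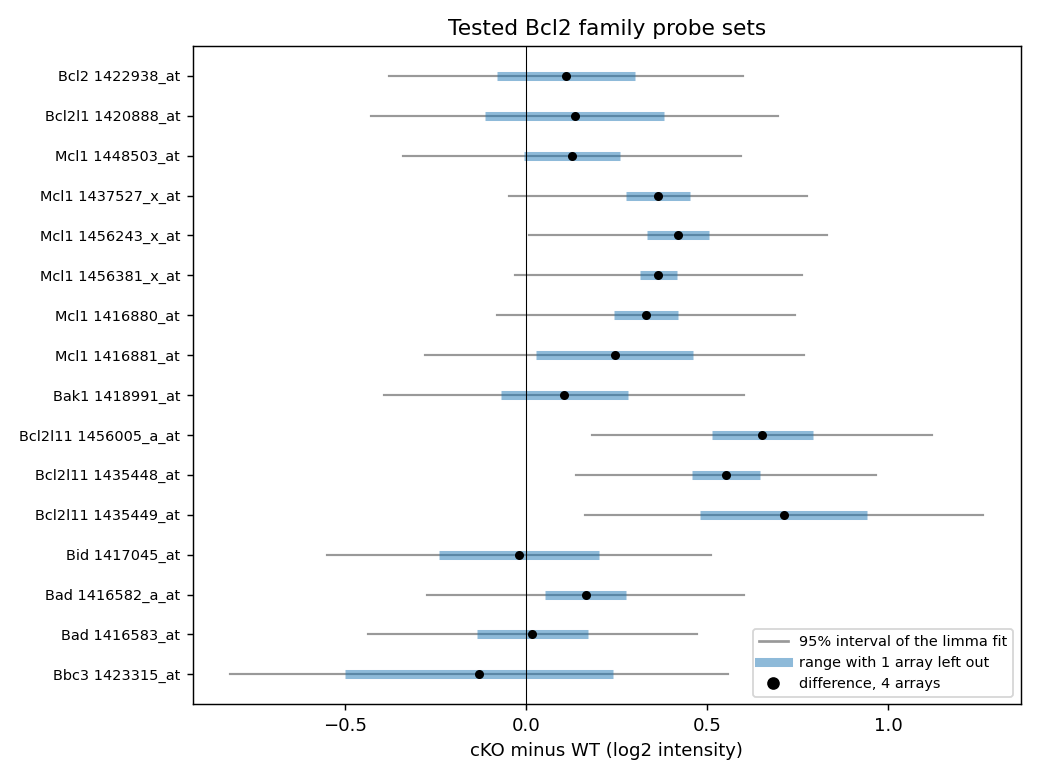
The cKO minus WT difference in log2 intensity (point) of the 16 tested member probe sets, with limma's 95% interval (grey line) and the range when 1 of the 4 arrays is left out (blue bar). The blue bars of Bcl2l11 lie between 0.46 and 0.94, and those of Bcl2, Bcl2l1, Bak1, Bid, Bbc3, Mcl1 1448503_at and Bad 1416583_at cross 0.

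The comparison of set 2 with set 1 asks whether the members differ between the sets that one label calls activated and quiescent. No member passed limma's test (lowest adjusted p = 0.999), and neither did any other probe set (0%). With the genotype as a block the member count was again 0, against 0.0399% of all probe sets. At an unadjusted p under 0.05 there were 0 members, against 3.6% of all probe sets. The sets' order was the same in both genotypes for 8 of the 16 tested member probe sets, 3 higher and 5 lower in set 2. None of the 16 differed by at least 0.32 in one direction in both genotypes, where 4.88% of all probe sets were that much higher and 3.87% that much lower in set 2.

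The largest values between sets were negative and belonged to Bbc3, Bcl2l1 and Bid. Bbc3 differed by -0.41 (SE 0.23, limma adjusted p = 0.999), with -0.74 between the WT arrays and -0.07 between the cKO arrays. Bcl2l1 differed by -0.35 (95% interval from -0.84 to 0.14), with -0.49 in WT and -0.20 in cKO. Bid differed by -0.31, with -0.18 in WT and -0.44 in cKO, and Bak1 by -0.28, with -0.21 and -0.35. Bcl2 differed by 0.24, with 0.38 in WT and 0.09 in cKO. On these genes the WT arrays of Bbc3 were furthest apart.

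Bcl2l11 probe set 1456005_a_at was higher in set 2 by 0.28 in WT and 0.21 in cKO, both smaller than the genotype differences on the same arrays. On 1435449_at of Bcl2l11 the sets differed by -0.22 in WT and 0.46 in cKO. For Mcl1, 5 of the 6 probe sets had opposite signs in WT and cKO. The 2 comparisons use the same 4 arrays and are not independent of each other.

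Other genes of the family and its pathway were followed in 5 lists. In none of them did a probe set pass limma's test between genotypes or between sets. In the list of other Bcl2 family genes, 9 of 15 genes had a probe set and 5 were tested. Bnip3, a BH3-like protein of the mitochondrial membrane that marks mitochondria for removal, read 8.99 and 8.98 in cKO against 8.13 and 8.02 in WT. These groups were further apart than those of any member, and the difference was 0.91 (SE 0.16, unadjusted p = 0.0016 and adjusted p = 0.24 by limma). The pro-survival gene Bcl2l2 differed by 0.35, Pmaip1, which encodes the BH3-only protein Noxa, by 0.32, and the effector-like gene Bok by 0.31. For Bok the groups overlapped. With 1 array left out Pmaip1 ran from 0.068 to 0.57 and Bok from 0.035 to 0.59, the lowest values without WT set 2, and without cKO set 1 and WT set 2 they were 0.067 and 0.10. The list's median was 0.32.

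Downstream of the mitochondria, 12 of 14 apoptosome and caspase genes were tested on 16 probe sets, and their median was -0.0050. Both cKO arrays lay above both WT arrays on 2 of these probe sets and below on 5, where 23.4% and 21.4% of all tested probe sets did so. The mitochondrial nuclease gene Endog differed by 0.52, Aifm1, a flavoprotein released from mitochondria, by -0.42, the initiator caspase gene Casp2 by -0.35 and Cycs, cytochrome c itself, by -0.33 (limma adjusted p from 0.444 to 0.529). With 1 array left out Endog ran from 0.28 to 0.76 and Aifm1 from -0.67 to -0.16, and without cKO set 1 and WT set 2 they were 0.16 and -0.81. Cycs was then -0.20. All 3 tested Cycs probe sets were below WT on both cKO arrays. Inhibitor of apoptosis genes, which restrain caspases, had a median of -0.32 over 7 probe sets. On 1 of these both cKO arrays lay above both WT arrays and on 1 below, against 23.4% and 21.4% of all tested probe sets. The groups overlapped on the other 5, among them Birc6 1427488_a_at and both tested Xiap probe sets. On Birc6 1427488_a_at the cKO set 1 array, at 4.85, was below the limit. Birc6 differed by -0.78 on 1 probe set and by -0.32 and -0.03 on its others, Xiap by -0.54 on the probe set with the larger difference and -0.34 on the second, and Birc3 by 0.33. Between sets Birc6 1427488_a_at differed by 0.81 and Xiap 1456088_at by 0.71 (limma adjusted p = 0.999 for both). On the pair without cKO set 1 and WT set 2, the sign of the genotype difference turned, to 0.025 for Birc6 1427488_a_at and 0.18 and 0.053 for Xiap 1456088_at and 1437533_at, and Birc3 was 0.57.

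In the death receptor list, 6 of 9 genes were tested and the median over 10 probe sets was 0.35. Both cKO arrays lay above both WT arrays on 6 of these 10 and below on 1, against 23.4% and 21.4% of all tested probe sets. Cflar, an inhibitor of caspase-8, differed by 0.56 on one probe set and by -0.27 and 0.06 on the others above the limit. The receptor genes Tnfrsf21, Tnfrsf1a and Fas differed by 0.51, 0.46 and 0.37, with limma adjusted p from 0.402 to 0.475. Regulators of the family had a median of 0.04 over 31 probe sets of 13 genes. Ywhaz, a 14-3-3 protein that holds phosphorylated Bad in the cytosol, ran from -0.51 to 0.83 over 7 probe sets. Hip1, an endocytic protein, differed by 0.57 on 1434557_at. On its other tested probe set, 1424755_at, it differed by 0.27, with -0.27 within set 1 and 0.82 within set 2, and the groups overlapped. Usp9x, the deubiquitinase that stabilises Mcl1, differed by -0.47 on its probe set with the largest difference, and the co-chaperone gene Bag3 by 0.40. All 4 tested Usp9x probe sets had negative genotype differences over the 4 arrays, but within set 1 they ran from -0.24 to 0.05. Without cKO set 1 and WT set 2 they were 0.21 on 1420922_at, 0.30 on 1450039_at, -0.12 on 1428194_at and -0.042 on 1428193_at. Bag3 was then 0.15, Cflar 1424996_at 0.30, Tnfrsf21 1450731_s_at 0.35, Tnfrsf1a 0.32, Fas 0.48 and Ywhaz 1416103_at 1.06. Between sets the Usp9x probe sets had positive differences, of which the largest was 0.59, with the WT set 2 array highest on each. For the other list genes with the largest set differences, the tested probe set with the largest difference is given. It was -0.40 for Aifm1 and Casp9, -0.35 for Bag4 and -0.34 for Fadd. Cflar was at -0.26, Pmaip1 at -0.25 and Bok at -0.21. The other tested probe sets of Bag4 and Cflar were positive. Bag4 1418707_at differed by 0.34, Cflar 1425686_at by 0.25 and Cflar 1449317_at by 0.07. Cflar 1424996_at, the one at -0.26, differed by 0.17 in WT and -0.70 in cKO.

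**Figure D4:**
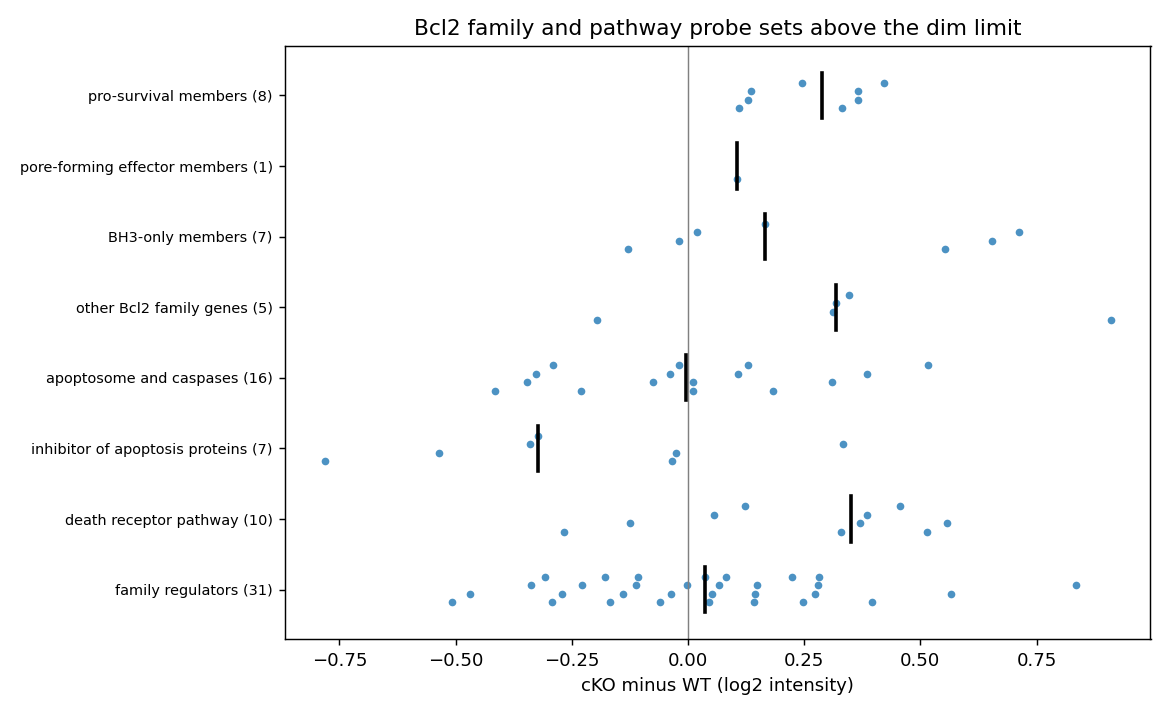
The cKO minus WT difference in log2 intensity of each probe set above the limit, by list, with the number of probe sets in brackets; each point is 1 probe set and the black bar is the list's median. The medians run from -0.32 for inhibitor of apoptosis genes to 0.35 for the death receptor list, and Bnip3 at 0.91 is the rightmost point.

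The probe set profiles nearest to the leading member were looked up over the 4 arrays. For Bcl2l11 1456005_a_at, each profile being centred on its own mean, the nearest among the tested probe sets of other genes were those of Foxp1, Ddhd2 and Frmd4b, at root mean square distances of 0.030, 0.046 and 0.050 on the log2 scale. Foxp1, a forkhead transcription factor gene, read 9.81 and 9.95 in cKO against 9.05 and 9.33 in WT. With 4 arrays, such likeness describes these samples only.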

How the data were processed

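RNA was extracted with Trizol from sorted cells, and cRNA labelled with biotin was made from 2 µg of it for Affymetrix arrays, per the labels' protocols. The authors deposited 1 intensity value per probe set and array, made with RMA per the submitters' processing notes; its version and settings were not given in the sources used here. Since deposited intensity values ran from 5.29 to 25561 they were read as linear, and their log2 was taken. There is no detection call, and RMA compresses differences of dim probe sets.

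Of the probe sets, 20380 carried a single symbol in the platform annotation. The 12531 above the limit were fitted with limma 3.58.1 under R 4.3.3, using lmFit and eBayes with genotype, or set, as the only term. Benjamini-Hochberg adjustment ran over all of them, with a threshold of 0.05. The fit was tested on simulated data. An exact permutation test of 2 against 2 arrays reaches p = 0.333 at best, and so few arrays limit precision. The set numbers in the titles were taken to pair the arrays, because one state is described for both arrays of a set; deviations of same-numbered arrays from their genotype means correlated with r = 0.251 across probe sets.

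Named are all member probe sets, up to 4 genes of each pathway list with the largest genotype difference and up to 2 with the largest set difference, the 3 profiles nearest to the leading member, and Tbx1. Members and lists were chosen with earlier results of these data known. Alternatives were the filter, 1 probe set per gene, gene means, a second quantile normalisation, median centring, log2(intensity + 16), a variance trend, a threshold of 0.10, blocks and leaving out arrays.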

Additional observations from a re-analysis of the deposited data

How the results depend on the processing

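No member passed limma's test in either comparison under any alternative run, including the set number as replicate block (0 members called), the genotype as block (0), the threshold of 0.10 (0) and each array left out in turn (0 to 0). The block changed no call of a member. Over all probe sets, limma called 7 between genotypes and 57 with the set as block, 11 with a variance trend and robust fitting, 11 at the threshold of 0.10, 0 at the percentile 60 filter and 0 to 11 with an array left out (3 without cKO set 1, 11 without cKO set 2, 0 without WT set 1 and 2 without WT set 2). Between sets it called 0, and 5 with the genotype as block. Members higher in cKO by at least 0.32 within both sets numbered 4, and 3 to 5 under the other scalings. The 3 tested Bcl2l11 probe sets, and the 4 Mcl1 probe sets whose groups stood apart, kept a positive genotype difference under every alternative run on them.

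Genotype differences that changed sign when 1 array was left out ran from -0.14 to 0.17 for Bad 1416583_at, from -0.069 to 0.28 for Bak1 1418991_at, from -0.50 to 0.24 for Bbc3 1423315_at, from -0.080 to 0.30 for Bcl2 1422938_at, from -0.11 to 0.38 for Bcl2l1 1420888_at, from -0.24 to 0.20 for Bid 1417045_at, from -0.35 to 0.30 for Birc2 1418854_at and from -0.0044 to 0.26 for Mcl1 1448503_at. With cKO set 1 and WT set 2 both left out, an alternative added after the data were seen, the sign turned to -0.21 for Bcl2l1 1420888_at, -0.18 for Bak1 1418991_at, 0.025 for Birc6 1427488_a_at, 0.18 for Xiap 1456088_at and 0.26 for Birc2 1418854_at.

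Set differences that changed sign when 1 array was left out ran from -0.21 to 0.14 for Bad 1416582_a_at, from -0.20 to 0.43 for Bcl2l11 1435448_at, from -0.41 to 0.65 for Bcl2l11 1435449_at, from -0.10 to 0.59 for Bcl2l11 1456005_a_at, from -0.54 to 0.12 for Bok 1417040_a_at, from -0.76 to 0.24 for Cflar 1424996_at, from -0.14 to 0.29 for Mcl1 1416880_at, from -0.13 to 0.41 for Mcl1 1416881_at, from -0.31 to 0.16 for Mcl1 1437527_x_at, from -0.21 to 0.16 for Mcl1 1448503_at, from -0.32 to 0.22 for Mcl1 1456243_x_at, from -0.27 to 0.12 for Mcl1 1456381_x_at and from -0.53 to 0.032 for Pmaip1 1418203_at. The cause was not tested. Levels near the limit restrict what can be said of Bmf, Bbc3 and Bak1.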
